A study of Mus musculus with 6 samples.

Results

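Transcripts of 8 genes of the Wnt pathway were measured by RNA-seq in mouse kidney cortex: the ligands Wnt7b, Wnt4, Wnt9b, Wnt5a and Wnt11, the pathway targets and regulators Axin2 and Lef1, and the receptor Lgr4. All 8 were found by symbol among the 24421 genes of the count table. They were chosen by a measured value: Wnt7b was higher in every library from mice with I-PpoI than in every control library, and the other 7 are its relatives and partners in the pathway. The same contrast is therefore given for these genes as a description. Counts of how many were called stand beside the share of all genes called and support nothing.

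The study compared mice in which proximal tubular epithelial cells express I-PpoI (PT-I-PpoI, titled PT-I_Ppo-1, 3 libraries) with wild type mice (3 libraries). The enzyme, a homing endonuclease, makes double-strand breaks in DNA at its target sequence. The labels give kidney cortex as the tissue of both groups. The promoter that drives expression, the strain, sex and age are not given in the sources used here, nor whether the libraries stand for separate animals. The p-values below therefore cover the spread between these libraries, which may be technical.

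Wnt proteins are secreted lipid-modified ligands that bind Frizzled receptors and the co-receptors Lrp5 and Lrp6. In the canonical branch this stabilises beta-catenin, which enters the nucleus and activates genes together with factors of the TCF/LEF family. During kidney development Wnt9b from the ureteric bud induces the nephron, Wnt4 drives the formation of its tubule, Wnt11 acts at the ureteric bud tips, and Wnt7b from the collecting duct epithelium is needed for the medulla to form. Wnt5a is best known as a ligand of the noncanonical branch. Axin2 is both a scaffold of the complex that destroys beta-catenin and a widely used target of the pathway, Lef1 is a nuclear partner of beta-catenin, and Lgr4 is a receptor for R-spondins, which strengthen Wnt signals.

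Sequence upstream of the start was matched by symbol in RefSeq (GRCm38.p6) for 6 of the 8 genes, with 10 start sites in all. Wnt7b and Wnt5a had no entry. Shown are the windows of Wnt11 (the first of 2) and of Axin2, the canonical target. Wnt11, like Wnt7b, was higher in every PT-I-PpoI library. Each window is the 250 bases before the start, 5′ to 3′ on the gene's strand. The core of the TCF/LEF site, CTTTGA, is in capitals where it lies on either strand (as TCAAAG on the strand printed when it lies on the other).
Wnt11 upstream window, chr7:98834862-98835111, plus strand: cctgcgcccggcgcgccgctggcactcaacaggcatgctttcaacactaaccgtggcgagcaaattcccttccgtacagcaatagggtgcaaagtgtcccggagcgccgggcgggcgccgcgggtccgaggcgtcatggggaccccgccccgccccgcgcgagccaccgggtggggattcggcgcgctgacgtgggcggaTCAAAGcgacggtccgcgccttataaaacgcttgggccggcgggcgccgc
Axin2 upstream window, chr11:108920099-108920348, plus strand: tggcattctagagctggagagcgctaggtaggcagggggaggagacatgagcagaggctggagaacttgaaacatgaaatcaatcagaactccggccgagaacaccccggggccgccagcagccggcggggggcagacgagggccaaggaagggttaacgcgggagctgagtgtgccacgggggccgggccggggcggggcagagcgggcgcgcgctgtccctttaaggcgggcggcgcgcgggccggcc
The Wnt11 window shown held 1 match, which begins 50 bases before the start, and the Axin2 window held 0. The window of the second Wnt11 start site, chr7:98838595-98838844, also held 0. CTTTGA was present in 13.8% of the 32851 upstream windows of this length. The longer form CTTTGAT, which contains it, was present in 3.21% and also in the Wnt11 window shown. Of the 6 genes with a window, Wnt11 held CTTTGA at 1 of its 2 start sites and Lef1 at 1 of its 4. Counted by gene, over all start sites of each, 15.8% of 27025 genes held it. A match is a description of letters in the window and not evidence of binding.

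Library depth ran from 13.6 to 20.9 M counted read pairs. Library names end in a number either with a hyphen before it (wild type replicates 2 and 3, and PT-I-PpoI replicate 3) or with none (the other 3), and these forms lay apart on principal component 1, which held 43.0% of the variance. Nothing in the labels calls the forms a batch. Differences within each form are given beside the results. The summed level of 12 proximal tubule genes ran from 28505 to 45916 CPM (read pairs scaled to a common normalised library total) across PT-I-PpoI libraries and from 39988 to 47649 CPM across wild type libraries. Most of that sum was Kap, 1 of the 12. All 12 had log2 fold changes below 0, with a median of -0.26, and 0 were called by edgeR (unadjusted p under 0.05 in 3, all lower).

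Wnt7b and Wnt11 were the 2 genes of the 8 whose levels were higher in all PT-I-PpoI libraries than in all wild type libraries. Wnt7b was 2.27-fold and Wnt11 3.27-fold higher on average. The remaining ligands, Axin2, Lef1 and Lgr4 overlapped between the groups. Among all 13977 genes tested, 9.23% were higher without overlap, and 17% did not overlap in either direction. By the quasi-likelihood test of edgeR (Benjamini-Hochberg adjusted), 0.136% of all genes were called between the groups, and the unadjusted p was under 0.05 for 12% (6.42% higher). Of the members, 0 of the 7 that were tested were called (unadjusted p under 0.05 in 2, both higher; 2 called by DESeq2, 0 by limma-voom, and 0 by limma on the deposited log2 values). With the name form as a term, 0.458% of all genes and again 0 of the 7 were called by edgeR. Since this contrast chose the genes, nothing is read from any of these counts.

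**Figure D1:**
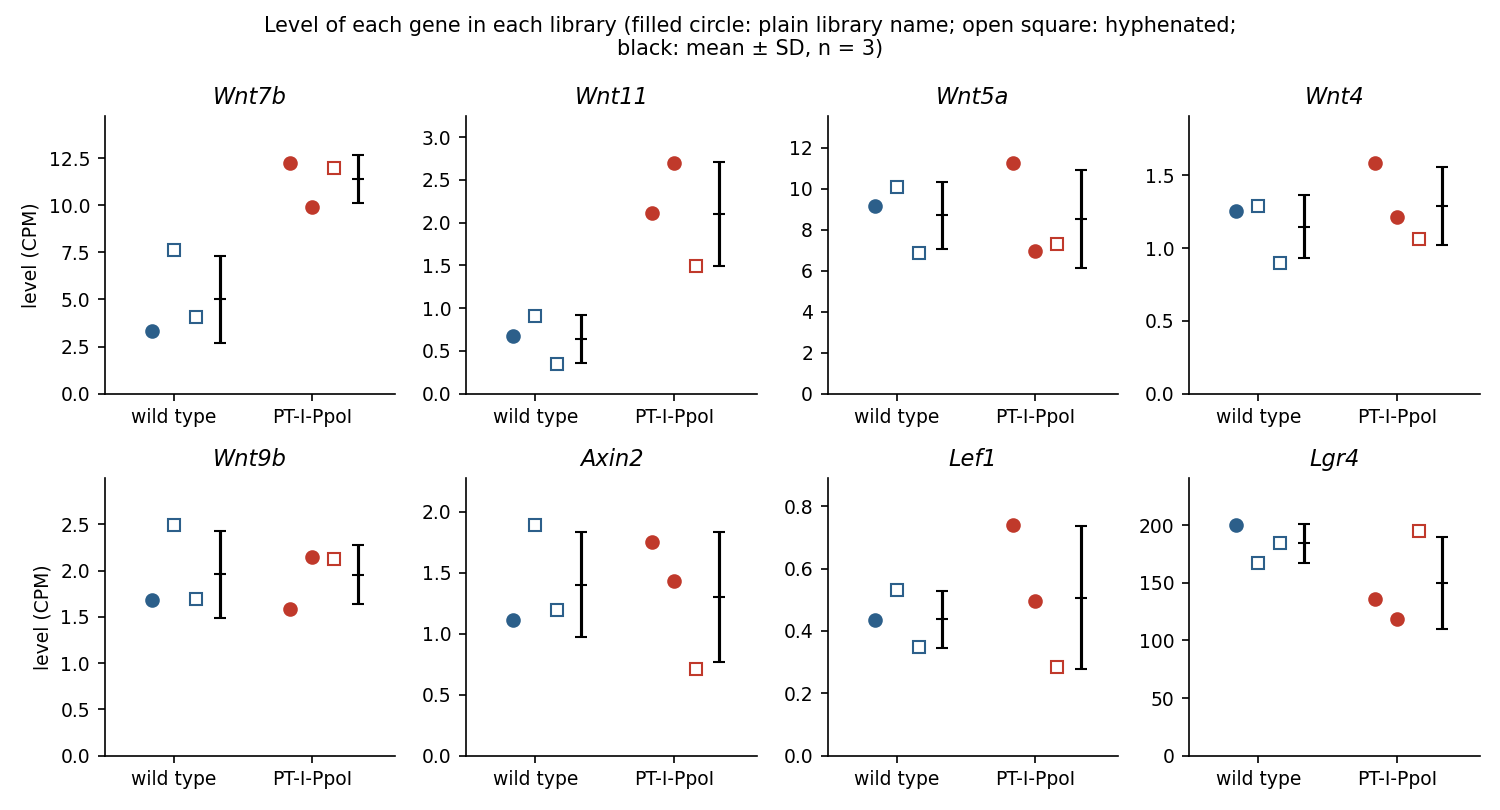
Level of each of the 8 genes (y axis, CPM, linear from 0) in the 3 wild type (blue) and 3 PT-I-PpoI (red) libraries, with the mean ± SD in black; filled circles are libraries with plain names and open squares those with a hyphen. The points of Wnt7b and Wnt11 do not overlap between the groups, while those of the other 6 genes do.

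Wnt7b (chromosome 15, 85535437 to 85581821, mm10, minus strand) was at 12.3, 9.93 and 12 CPM in PT-I-PpoI replicates 1, 2 and 3. In wild type replicates 1, 2 and 3 it was at 3.32, 7.65 and 4.08 CPM. The lowest PT-I-PpoI library thus lay above the highest wild type library, wild type replicate 2, and the wild type libraries were the more spread out. Group means were 11.4 ± 1.28 and 5.02 ± 2.31 CPM (SD, n = 3 each). This gave a log2 fold change of 1.22 ± 0.27 (SE). Within libraries with plain names the log2 difference was 1.70, and within hyphenated ones 1.08. Leaving out wild type replicate 2 gave a log2 fold change of 1.62 and leaving out wild type replicate 1 gave 0.99, the highest and lowest values with a library left out. The counts behind these levels were 69 to 232 read pairs. Exons of AU022754, on the opposite strand, share 38 of the 4415 exon bases of Wnt7b. The counting did not use strand, and AU022754 itself had 2 to 28 read pairs.

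Wnt11 (chromosome 7, 98835112 to 98854747, plus strand) was a low transcript, with 7 to 49 read pairs per library. Its level was 2.12, 2.70 and 1.49 CPM in PT-I-PpoI replicates 1, 2 and 3 and 0.674, 0.909 and 0.349 CPM in the wild type replicates in the same order. As for Wnt7b, wild type replicate 2 was the highest control library and all PT-I-PpoI libraries lay above it. The log2 fold change was 1.76 ± 0.38 (SE), from 0.644 ± 0.281 to 2.10 ± 0.608 CPM (SD, n = 3 each). Differences within the name forms were 1.69 for plain names and 1.24 for hyphenated ones on the log2 scale. With 1 library left out the log2 fold change ran from 1.44 to 2.03.

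The 3 other ligands showed no separation. Wnt5a (chromosome 14, 28505473 to 28525515) was at 11.3, 6.95 and 7.30 CPM in PT-I-PpoI and 9.15, 10.1 and 6.87 CPM in wild type, with a log2 fold change of -0.02 ± 0.22. Both the highest value of Wnt5a, in PT-I-PpoI replicate 1, and the second lowest, in PT-I-PpoI replicate 2, came from the same group. Wnt4 (chromosome 4, 137277635 to 137299501) was at 1.59, 1.21 and 1.06 CPM against 1.25, 1.29 and 0.897 CPM, a log2 fold change of 0.19 ± 0.29. Wnt9b (chromosome 11, 103727363 to 103749821) was at 1.59, 2.15 and 2.13 CPM against 1.69, 2.50 and 1.69 CPM, a log2 fold change of 0.01 ± 0.26. The 15 to 39 read pairs per library of Wnt4 and Wnt9b leave small changes in these 2 undetectable. Wnt5a had 103 to 213.

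To compare ligands with each other, levels were divided by exon length (CPM per kb). In every wild type library Wnt5a stood above Wnt7b, and in every PT-I-PpoI library Wnt7b stood above Wnt5a (3 of 3 each). Wnt7b made up 20.0%, 33.2% and 28.8% of the summed level of the 5 ligands in wild type replicates 1, 2 and 3, and 41.0%, 41.0% and 48.5% in the PT-I-PpoI replicates. Wnt5a made up 55.7%, 44.2% and 48.9% of it in wild type and 38.0%, 29.0% and 29.8% in PT-I-PpoI. The sum itself was 3.22 to 5.21 CPM per kb in wild type and 5.48 to 6.79 CPM per kb in PT-I-PpoI. Wnt11 was the lowest of the 5 ligands in all wild type libraries, and lay above Wnt4 in 3 of 3 and above Wnt9b in 2 of 3 PT-I-PpoI libraries.

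**Figure D2:**
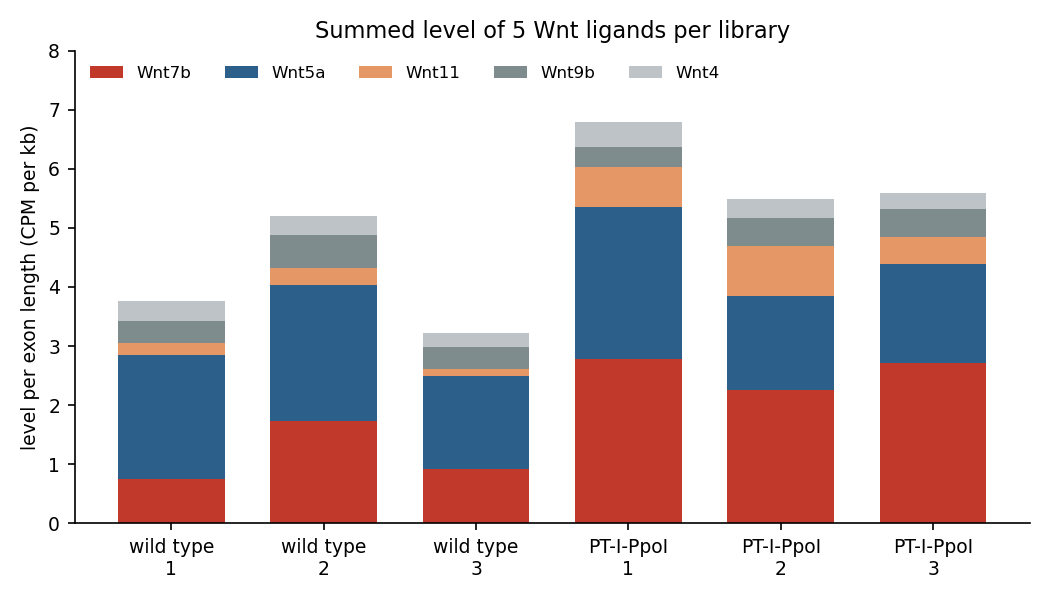
Summed level of the 5 ligands in each library (y axis, CPM per kb of exon, stacked bars from 0; x axis, library by group and replicate). The Wnt7b segment at the base is larger than the Wnt5a segment in the 3 PT-I-PpoI libraries and smaller in the 3 wild type libraries.

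In wild type the order of the mean levels was Lgr4 (36.4 ± 3.31 CPM per kb, SD, n = 3), Wnt5a (1.99 ± 0.376), Wnt7b (1.14 ± 0.523), Wnt9b (0.434 ± 0.103), Axin2 (0.328 ± 0.101), Wnt4 (0.300 ± 0.0565), Wnt11 (0.202 ± 0.0883) and Lef1 (0.119 ± 0.0246). The gap between Lgr4 and the rest was far larger than the spread, whereas every other pair of neighbours in that order overlapped in range except Wnt7b and Wnt9b. In PT-I-PpoI the order was Lgr4 (29.6 ± 7.88 CPM per kb), Wnt7b (2.58 ± 0.289), Wnt5a (1.95 ± 0.549), Wnt11 (0.660 ± 0.191), Wnt9b (0.433 ± 0.0705), Wnt4 (0.337 ± 0.0706), Axin2 (0.304 ± 0.125) and Lef1 (0.138 ± 0.0621). Here too the neighbours below Lgr4 overlapped, except for Wnt5a and Wnt11.

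Levels of Axin2 and Lef1 did not separate the groups as those of Wnt7b did. Axin2 (chromosome 11, 108920349 to 108950781) was at 1.75, 1.43 and 0.709 CPM in PT-I-PpoI and 1.11, 1.89 and 1.2 CPM in wild type. PT-I-PpoI replicate 3, the lowest library, had 10 read pairs. The log2 fold change was -0.05 ± 0.37, and the difference was 0.48 within plain names but -0.99 within hyphenated ones. Lef1 (chromosome 3, 131110297 to 131224357) had 4 to 14 read pairs, too few to pass the expression filter. It was at 0.741, 0.497 and 0.283 CPM against 0.433, 0.530 and 0.349 CPM, and PT-I-PpoI libraries were both the highest and the lowest. A change in Lef1 was not detectable at this depth. T cells also express Lef1, and 4 of the 9 T cell genes in the table were left untested for low counts. Of the 5 tested, 2 were above and 3 below 0 and 0 were called by edgeR (unadjusted p under 0.05 in 1, Lck). Cd3e ranged from 0.110 to 0.847 CPM with I-PpoI and from 0.530 to 1.35 CPM without, while Lck was higher without overlap, at 1.98 to 2.70 against 1.05 to 1.82 CPM. The summed level of the 9 genes was 6.80 to 10.6 against 5.68 to 10.2 CPM, and its part in Lef1 was not tested.

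Lgr4 (chromosome 2, 109917647 to 110014257) was the most abundant of the 8, at 136, 119 and 195 CPM in PT-I-PpoI replicates 1, 2 and 3 and 200.5, 167 and 185 CPM in wild type. The low values were those of PT-I-PpoI replicates 1 and 2, while PT-I-PpoI replicate 3 lay within the wild type range. Its log2 fold change was -0.30 ± 0.17, with differences of -0.66 within plain names and 0.15 within hyphenated ones. The same 2 libraries had the lowest summed levels of the 12 proximal tubule genes, 32344 and 28505 CPM against 39988 CPM or more in the other 4. Slc34a1, the sodium-phosphate cotransporter of the proximal tubule, was likewise lowest there, at 4524 and 3628 CPM. Most of the sum was Kap, at 22113 and 19263 CPM in these 2 libraries and 28060 to 32647 CPM in the other 4. Not every gene of the list had this order. In PT-I-PpoI replicates 1, 2 and 3 Slc22a8 was at 860, 815 and 795 CPM and Slc13a3 at 886, 758 and 836 CPM. Outside PT-I-PpoI replicates 1 and 2, Lgr4 did not follow the sum of the 12 genes. Wild type replicate 1 had Lgr4 at 200.5 CPM beside a sum of 39988 CPM. For wild type replicate 2 these were 167 and 46008 CPM. The part of these genes in the Lgr4 values was not tested, and in bulk tissue fewer cells of a type and less RNA per cell cannot be told apart.

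**Figure D3:**
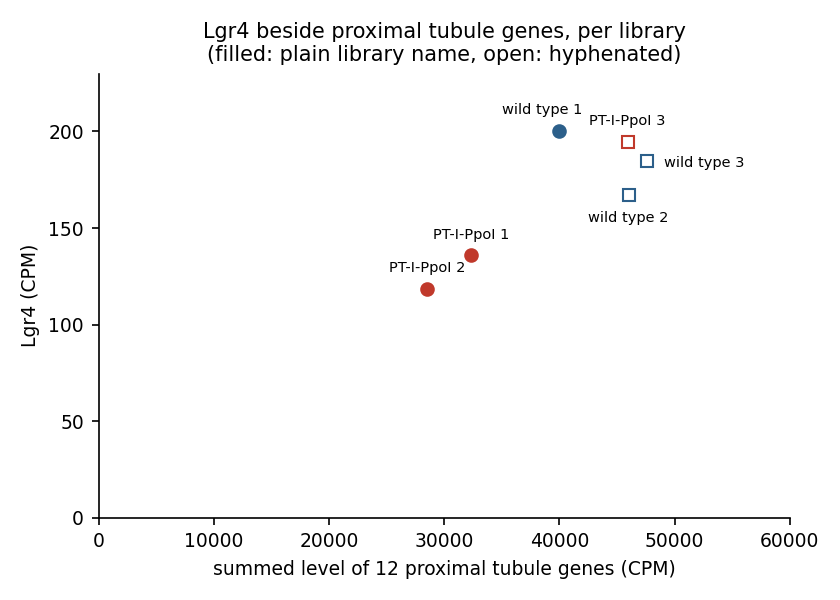
Lgr4 level (y axis, CPM) against the summed level of 12 proximal tubule genes (x axis, CPM) in each library; red is PT-I-PpoI and blue is wild type. PT-I-PpoI replicates 1 and 2 are lowest on both axes, and PT-I-PpoI replicate 3 lies with the wild type libraries. Most of the sum is 1 gene, Kap.

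Wnt7b and Wnt11 were higher in libraries that were also higher in markers of the collecting duct, the segment in which Wnt7b is known from development. All 11 principal cell genes had log2 fold changes above 0, with a median of 0.53 against 0.00 over all genes tested. By edgeR 2 rose, beside 0.136% of all genes called (unadjusted p under 0.05 in 8, all higher). Summed over the list they reached 1408 to 1478 CPM with I-PpoI, against 1079 to 1140 CPM in controls, and none was at 0. Aqp2, the vasopressin-regulated water channel, was at 352, 249 and 407 CPM against 210, 198 and 176 CPM. Intercalated cell genes were above 0 in 10 of 10, with a median of 0.24, none called by edgeR (unadjusted p under 0.05 in 3, all higher, beside the 6.42% of all genes), and sums of 617 to 693 against 522 to 596 CPM. Genes of the thick ascending limb were above 0 in 8 of 8, with a median of 0.44 and sums of 7813 to 8124 against 5531 to 6295 CPM. Of these 8, edgeR called 1, and 3 with the name form as a term (unadjusted p under 0.05 in 7, all higher).

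Inner medulla genes had the largest median log2 fold change of the 10 marker lists, 0.97 over the 6 tested of 8. Of these 6, 5 were higher without overlap, beside 9.23% of all genes tested. By edgeR 1 was called, and 3 with the name form as a term, beside 0.136% and 0.458% of all genes. Their summed level, 1359 to 1399 against 989 to 1269 CPM, was mostly Aqp1, a water channel that the proximal tubule also expresses, at 1015 to 1060 against 852 to 1056 CPM. Akr1b3 was at 0 in all 6 libraries, and the counts cannot tell absence from reads that were not assigned to it. The higher levels were not limited to distal segments: endothelial genes were above 0 in 8 of 8, with sums of 662 to 688 against 563 to 625 CPM, and podocyte genes in 8 of 8, with sums of 445 to 569 against 410 to 475 CPM. None of the endothelial or podocyte genes was called by edgeR (unadjusted p under 0.05 in 3 and 0, all higher).

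Relative to the mean log2 level of the 11 principal cell genes, Wnt7b lay at -2.33, -2.55 and -2.31 in the PT-I-PpoI replicates and at -3.55, -2.48 and -3.31 in the wild type replicates. Wild type replicate 2 thus fell within the PT-I-PpoI range on this measure, and the groups overlapped. The mean difference was 0.71, against 1.25 for Wnt7b itself and 0.54 for the principal cell mean. The Wnt11 level relative to the same mean was -4.81, -4.39 and -5.24 against -5.70, -5.42 and -6.53, without overlap. Slc14a2, which carries urea in inner medullary collecting duct, was at 103, 84.1 and 83.8 CPM in PT-I-PpoI and 6.07, 28.6 and 20.8 CPM in wild type. Among wild type libraries its order, lowest in replicate 1 and highest in replicate 2, was that of Wnt7b. Among PT-I-PpoI libraries the orders differed, with Slc14a2 lowest in replicate 3 and Wnt7b lowest in replicate 2. The part of tissue composition in the Wnt7b and Wnt11 values was not tested.

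The gene whose level followed that of Wnt7b most closely over the 6 libraries was Elf5, an ETS transcription factor of principal cells that is also among the 11 genes. Pearson's r of log2 CPM was 0.992, and 0.969 for deviations from the group means, over 6 libraries and among 13225 genes with a mean of at least 1 CPM. Elf5 was at 2.80, 2.10 and 2.76 CPM in PT-I-PpoI and 0.771, 1.59 and 1.05 CPM in wild type. The next 4 were Gal3st1, a sulfotransferase of sulfatide synthesis (r = 0.988), the scavenger receptor gene Stab1 (0.985), Dnajc8 (0.981) and Srgap3 (0.979). From deviations their r was 0.952, 0.954, 0.925 and 0.917. With so many genes and 6 libraries, values this high are a description of these libraries. Among the members, r with Wnt7b within groups (from deviations) was 0.65 for Wnt9b, 0.47 for Axin2, 0.43 for Wnt5a, 0.35 for Wnt11, 0.29 for Wnt4, 0.28 for Lef1 and -0.16 for Lgr4. With the group difference included, r was 0.85 for Wnt11 and ran from -0.57 (Lgr4) to 0.42 (Wnt4) for the others.

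**Figure D4:**
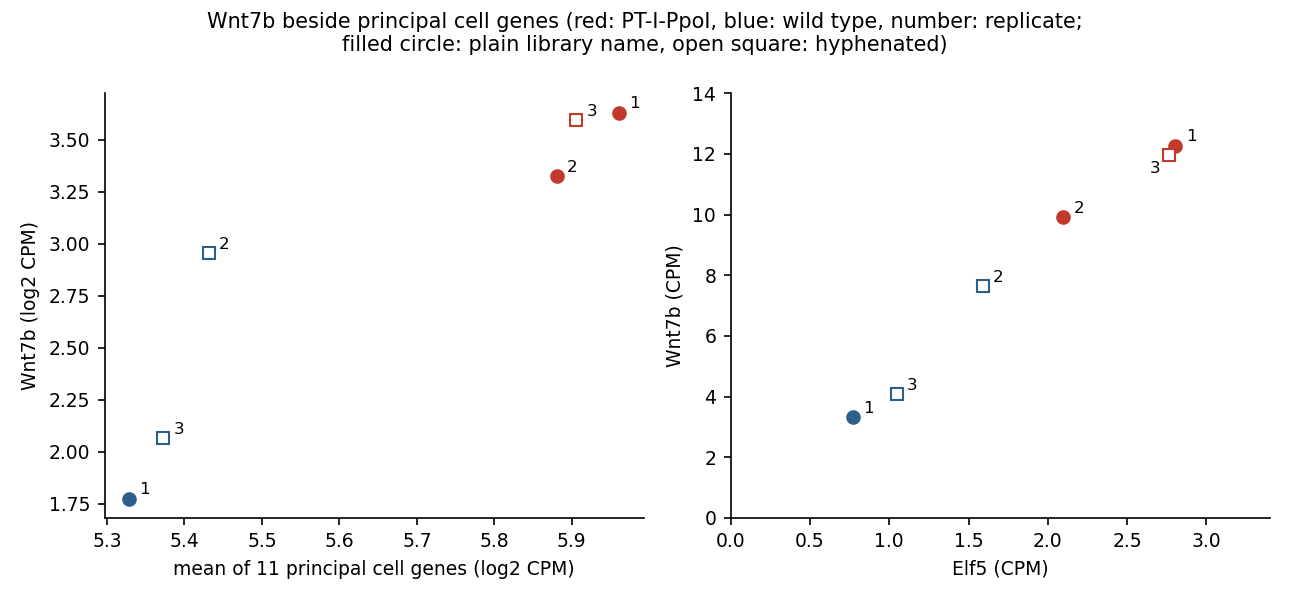
Left, Wnt7b against the mean of 11 principal cell genes (both log2 CPM); right, Wnt7b against Elf5 (both CPM), 1 point per library (red PT-I-PpoI, blue wild type, number the replicate). Principal cell means fall in 2 clusters by group. Within each group the order of the libraries is that of Wnt7b, but Elf5 is 1 of the 11 genes averaged. The means also spread little within groups (SD 0.04 in PT-I-PpoI and 0.05 in wild type), so nothing is read from that order.

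The name forms offered a contrast that the choice of genes did not use. Between hyphenated and plain names, with the group as a term, edgeR called 3.06% of all genes and 0 of the 7 tested members (0 by DESeq2 and 0 by limma-voom). The smallest edgeR adjusted p was that of Wnt7b, with a log2 difference of 0.39 ± 0.26 (hyphen minus plain, adjusted p = 0.452). For Lgr4 the values were 0.21 ± 0.15 (edgeR adjusted p = 0.502) and for Wnt11 -0.50 ± 0.38 (edgeR adjusted p = 0.518). A difference by name form for these genes was not shown, and the SE of each leaves room for one.

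Beyond the 8 genes, 116 further pathway genes were followed in 9 lists, of which 89 passed the expression filter. Between PT-I-PpoI and wild type edgeR called 0 of the 89 in either direction, beside a background of 0.136%. The unadjusted p was under 0.05 for 6 higher and 8 lower of the 89, a count to be read against the 12% of all genes that reached it. DESeq2 called 1, Tmed2, as lower, and limma-voom and limma on the deposited log2 values called 0 each. The median log2 fold change of the 89 was -0.02, beside 0.00 over all genes tested. None of the genes named in the following paragraphs passed the edgeR test between PT-I-PpoI and wild type.

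Of the other 14 ligands 5 were tested, with a median log2 change of -0.34 and 4 of them below 0. Wnt5b, a noncanonical ligand, was at 5.56, 5.52 and 6.45 CPM in PT-I-PpoI and 6.79, 8.40 and 7.22 CPM in wild type, without overlap in the direction opposite to Wnt7b (log2 fold change -0.35 ± 0.15, edgeR adjusted p = 0.399). Wnt10a had the next smallest p, at 0.464 ± 0.157 against 0.627 ± 0.130 CPM. Wnt1, Wnt3, Wnt3a and Wnt8a had 0 read pairs in all 6 libraries, which allows up to 0.144 to 0.227 CPM per library (3 counts, counting error only). Among 6 genes for ligand secretion the median was -0.07. Tmed2, a cargo receptor of the early secretory pathway, was at 107, 110 and 119 against 135, 142 and 143 CPM (log2 fold change -0.32 ± 0.08, edgeR adjusted p = 0.201). Tmed5, of the same family, was at 25.0 ± 6.42 against 31.0 ± 3.35 CPM.

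Receptors and co-receptors, 14 of 16 tested, had a median log2 change of 0.03. Among them were 2 genes higher and 2 lower without overlap, beside 17% of all genes tested in either direction. Fzd5, a Frizzled receptor, was at 12.9, 13.1 and 15.3 CPM in PT-I-PpoI and 18.2, 17.9 and 18.9 CPM in wild type (log2 fold change -0.42 ± 0.11, edgeR adjusted p = 0.213). Ptk7, a pseudokinase receptor of the noncanonical branch, was at 11.3, 11.6 and 9.71 against 8.62, 7.12 and 8.92 CPM (0.40 ± 0.14, edgeR adjusted p = 0.336). Of 8 genes of the R-spondin axis 4 were tested, with a median of -0.18. Rnf43, a ubiquitin ligase that removes Frizzled receptors and is itself a target of the pathway, was at 7.99, 7.95 and 7.51 against 5.44, 5.38 and 6.82 CPM (0.41 ± 0.15, edgeR adjusted p = 0.348). Rspo3, an R-spondin, was at 0.543 ± 0.148 against 0.889 ± 0.122 CPM. Lgr5, the relative of Lgr4 known from stem cells, had 1 to 13 read pairs and was not tested.

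Secreted inhibitors, 12 of 17 tested, had a median of -0.14. Without overlap 3 genes were lower and 0 higher, beside 1082 lower and 1290 higher of all 13977 tested. Both of the named ones are enzymes that inactivate Wnt proteins. Trabd2b, a metalloprotease, was at 146, 144 and 140 CPM in PT-I-PpoI and 166, 183 and 180 CPM in wild type (log2 fold change -0.30 ± 0.08, edgeR adjusted p = 0.213). Notum, a deacylase that removes the lipid from Wnt ligands and is also a target of the pathway, was at 30.5, 31.2 and 29.6 against 37.2, 35 and 42.1 CPM (-0.32 ± 0.09, edgeR adjusted p = 0.251).

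Inside the cell, the 15 genes of Dishevelled and the destruction complex were all tested and had a median of -0.04. Dvl1, a Dishevelled, was at 141 ± 15.1 against 119 ± 5.21 CPM and the kinase gene Csnk1a1 at 79.3 ± 5.61 against 89.2 ± 5.21 CPM. Nuclear factors, 12 of 13 tested, had a median of 0.05. Tcf7l1, a TCF factor that mostly represses targets, was at 11.3, 14.1 and 10.8 against 8.96, 8.56 and 7.37 CPM (log2 fold change 0.54 ± 0.15, edgeR adjusted p = 0.229), and Bcl9, a beta-catenin co-activator, was at 12.6, 16 and 16.2 against 19.3, 18.2 and 19.4 CPM (-0.35 ± 0.12, edgeR adjusted p = 0.338).

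The transcriptional targets, 13 of 20 tested, had a median of 0.04, and 7 lay above and 6 below 0. Without overlap 1 was higher, Rnf43, and 2 were lower, Notum and Sp5, beside 17% of all genes tested in either direction. Sp5 was at 22.6, 23.7 and 17.9 against 28.4, 24.8 and 24.7 CPM (edgeR adjusted p = 0.419). Notum and Rnf43 had the smallest p in this list as well, with opposite signs. Their negative-feedback counterparts Axin2, Nkd1 and Znrf3 did not separate the groups, at log2 fold changes of -0.05, 0.42 and -0.03. Over 13 of 14 planar cell polarity genes the median was -0.03. Without overlap 1 was higher and 3 were lower, beside 17% of all genes tested in either direction. Vangl1, a membrane protein at the core of that pathway, was at 18.2, 20.0 and 20.6 against 24.0, 26.7 and 26.8 CPM (-0.40 ± 0.10, edgeR adjusted p = 0.201). Prickle3, another core component, was at 9.42, 11.9 and 8.72 against 8.72, 7.34 and 7.77 CPM, with the nearest libraries of the groups equal to the digits shown.

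**Figure D5:**
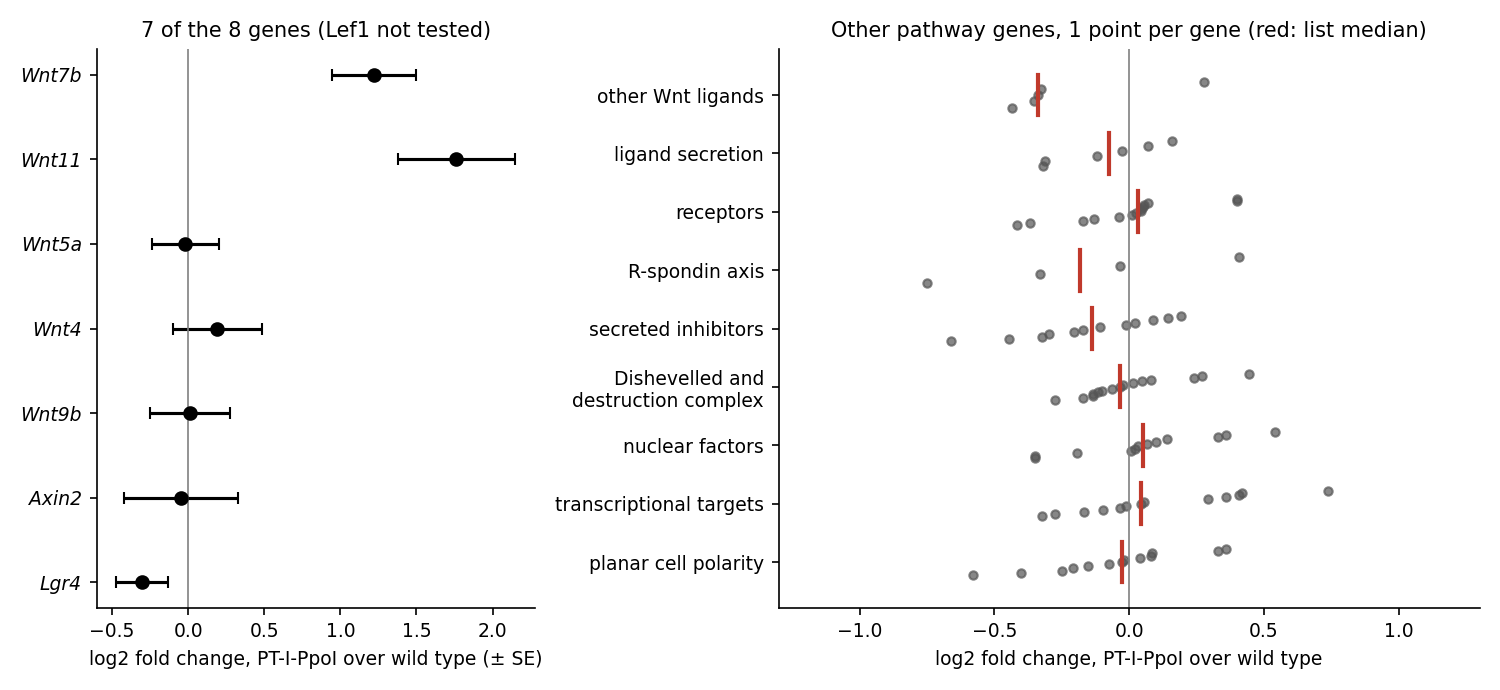
Left, log2 fold change ± SE of the 7 tested genes of the 8; right, log2 fold changes of the other tested pathway genes by list, 1 point per gene, with the list median in red (x axes, PT-I-PpoI over wild type; a gene in 2 lists is drawn in each). Wnt7b and Wnt11 lie above 1, and the list medians lie between -0.34 and 0.05.

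By name form, 5 of the 89 other pathway genes were called by edgeR, beside 3.06% of all genes: Fzd7, Ccnd1, Fbxw11, Frzb and Tle3, which are named because of that call. Ccnd1, the cyclin D1 gene and a classical target, was 0.70 ± 0.09 higher in hyphenated libraries on the log2 scale (edgeR adjusted p = 0.00835). Frzb, a secreted Frizzled-related inhibitor, was 0.88 ± 0.11 higher (edgeR adjusted p = 0.00780), and the receptor gene Fzd7 had a difference of -0.53 ± 0.09 (edgeR adjusted p = 0.0239). Values of those genes therefore differed between libraries of both groups along a contrast that is unequally shared by PT-I-PpoI and wild type.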

How the data were processed

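RNA-seq of kidney cortex from 3 PT-I-PpoI and 3 wild type libraries was analysed. The authors deposited raw read pair counts per gene. A strand-specific TruSeq kit was used and HISAT2 aligned the reads, per the labels' protocols. Exon counting used featureCounts 1.5.2 with no strand option, for pairs with both ends mapped, per the file headers. The header names an mm10 annotation and the labels' protocols mm9; all 8 genes overlapped their GRCm38.p6 positions, so coordinates are given as mm10. The authors also deposited regularized log2 values (rlog), used for 1 alternative.

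Counts were tested in R 4.3.3 with edgeR 4.0.16: default expression filter (minimum count 10; 13977 genes kept), TMM factors, quasi-likelihood test, two-sided, Benjamini-Hochberg adjustment over all genes, threshold 0.05. The procedure was tested on simulated counts that held group differences but no name form difference, so that part of the data was not covered. SE is the fold change divided by the root of F. Log2 levels outside the models used a pseudocount of 0.1 CPM. Alternatives included DESeq2 1.42.0 and limma 3.58.1. Members and gene lists were chosen with earlier results of these data known. Named were the members, per list the called genes and the 2 with the smallest p, and the 5 genes most correlated with Wnt7b; of the markers a few defining genes. Nkd1, Znrf3, Sp5, Lck, Aqp1, Akr1b3, Kap, Slc22a8, Slc13a3 and the genes called by name form were named after their values were seen.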

Additional observations from a re-analysis of the deposited data

How the results depend on the processing

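The number of genes called between the groups was 19 and became 47 without a filter on low counts, 198 by DESeq2, 64 when name form was added and 40 with the replicate number as a block. Leaving out 1 library gave 0 to 625: 0 when PT-I-PpoI replicate 1 or 2, or wild type replicate 3, was absent, 2 without wild type replicate 1, 9 without wild type replicate 2 and 625 without PT-I-PpoI replicate 3. As a description of genes that this contrast chose, 0 of the 8 were called by edgeR, 2 by DESeq2 (Wnt7b and Wnt11) and 0 to 2 with 1 library left out. The latter were Wnt7b without wild type replicate 2, and Wnt11 (higher) and Lgr4 (lower) without PT-I-PpoI replicate 3. Of the other pathway genes DESeq2 called 1, and leaving out 1 library gave 0 to 5, the 5 without PT-I-PpoI replicate 3. Between name forms 0 members were called under each alternative except 1, Lgr4, without wild type replicate 1. The cause of these shifts was not tested.

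Fold changes of the members moved by less than the spread between replicates in 103 of 105 values from the alternatives. The other 2 were Wnt7b and Wnt11 on the rlog scale, which shrinks low genes, at 0.44 and 0.19. Signs held in 15 of 15 alternatives for Wnt7b, Wnt11, Wnt4 and Lgr4, in 13 for Axin2, 11 for Wnt9b and 10 for Wnt5a. Same-numbered libraries had correlated deviations of 0.22, -0.13 and 0.16. These numbers follow the sample titles and partly differ from those in the library names. PT-I-PpoI replicate 3 and wild type replicate 2, whose library names share a number, had 0.18. The numbers also mix the name forms, so whether libraries were paired was not settled. The replicate block changed no call among the members. Lef1, Axin2, Wnt4, Wnt9b and Wnt11 rest on 49 read pairs or fewer per library, which limits what can be detected for them.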
